A study of Mus musculus with 3 samples.

Results

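Heat shock proteins and J-domain proteins form the molecular chaperone network of the mouse cell. The genes described here are those whose name in the scanner files begins with Hspa, Hspb, Hspd, Hspe, Hsph, Hsp90, Dnaja, Dnajb or Dnajc. The rule found 65 genes, measured by 122 probes, among 19712 named genes measured by 41174 probes, and it used no signal value. It works on the spelling of a name, so it also took Hspbap1, which is named for binding a small heat shock protein and is not one itself, and it left out 9 genes that the files list under names of another form: Dnajc22, Dnajc24, Dnajc25, Dnajc27, Dnajc28, Dnajc30, Hspa13, Hspb11 and Hspbp1. Dnajb2 and Dnajc3 stand in the files as Dnajb10 and Dnajc3a.

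The study set side by side the expression profiles of adult liver, fetal liver and bone marrow of C57BL/6 mice. Adult liver came from animals of 12 weeks and fetal liver from day 13.5 of gestation. For the marrow the labels name adult mice in a wording that may or may not extend the age of 12 weeks to it. No genotype or treatment is named for any of the 3 groups, and the sources used here state neither sex nor how many animals gave each RNA. Total RNA of each tissue was labelled with Cy3 and hybridised to 1 whole-genome Agilent array, a slide of synthetic oligonucleotide probes, so each tissue is a single sample. There is no spread between samples, no test was possible, and every difference below is a difference between these arrays with no replicate check.

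Chaperones of the HSP70 class hold and release unfolded proteins in a cycle driven by ATP. J-domain proteins (Dnaja, Dnajb and Dnajc) bring clients to HSP70 and start ATP hydrolysis, and exchange factors, among them the HSP110 proteins Hsph1, Hspa4 and Hspa4l, reset the cycle. HSP90 takes over late folding steps of kinases and receptors, the Hspd1 and Hspe1 chaperonin encloses proteins in the mitochondrial matrix, and the small heat shock proteins (Hspb) keep unfolding proteins soluble without ATP. Liver is a secretory organ, and its endoplasmic reticulum relies on its own members, Hspa5, Hsp90b1 and their J proteins. At mid-gestation the fetal liver is also the main site of blood formation, a role that passes to the bone marrow.

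The best known regulators of these genes act through short promoter motifs, and the members that carry such letters are shown before the signals, to give the reader the sequence next to the genes measured. Windows of the 250 bases before the transcription start were read from RefSeq (build GRCm38.p6), which had an entry for 54 of the 65 members. The heat shock element, bound by heat shock factors, was searched on both strands as 3 blocks separated by any 2 bases each: GAA first, then TTC, then GAA again, 13 bases in all. It occurred in 153 of 32851 promoter windows (0.466%), belonging to 139 of 27025 genes (0.514%), and in 3 of the 54 members (5.56%). Hspd1 and Hspe1 share it: their listed starts lie 216 bases apart on opposite strands, so the same bases appear in both promoters, with 2 overlapping matches of the motif on opposite strands. In the lines below capitals mark the match and lower case the flanking bases, 5′ to 3′ on the strand of the gene. The Hspe1 stretch lies at chr1:55088053-55088082 on the plus strand, with the first capital 89 bases before the start, and the Hspd1 line is its minus strand, 144 bases before that gene's start. The Dnajb6 stretch lies at chr5:29735846-29735870 on the plus strand, 46 bases before 1 listed start and 127 bases before another.
Hspe1: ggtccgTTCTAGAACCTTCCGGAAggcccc
Hspd1: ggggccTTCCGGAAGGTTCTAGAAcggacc
Dnajb6: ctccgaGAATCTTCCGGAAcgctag

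The endoplasmic reticulum stress element, known as a site of the unfolded protein response factor ATF6 acting with NF-Y, was searched on both strands as CCAAT followed, after any 9 bases, by CCACG. It occurred in 37 of the promoter windows (0.113%), belonging to 35 genes (0.13%), and in 3 of the 54 members, again 5.56%: Hspa5, Hsp90b1 and Dnajc3, all proteins of the endoplasmic reticulum. The windows lie at chr2:34772005-34772063 (plus strand) for Hspa5, at chr10:86705618-86705676 and chr10:86705513-86705571 (minus strand) for Hsp90b1, and at chr14:118937807-118937865 (plus strand) for Dnajc3. Their first capitals stand 65, 212, 107 and 105 bases before the start, in that order. The second Hsp90b1 line holds the reverse complement.
Hspa5: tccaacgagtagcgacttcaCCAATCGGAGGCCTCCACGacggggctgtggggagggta
Hsp90b1 upstream match: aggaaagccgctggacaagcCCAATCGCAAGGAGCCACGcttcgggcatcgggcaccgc
Hsp90b1 downstream match: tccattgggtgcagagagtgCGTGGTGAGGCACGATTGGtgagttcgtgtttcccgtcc
Dnajc3: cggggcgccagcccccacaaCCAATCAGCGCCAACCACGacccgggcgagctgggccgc
A match of letters is a description and shows no binding, and a window without these letters may still be bound. No motif was searched beyond these 2.

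Signals are the scanner's processed signals in arbitrary units, background-subtracted but not scaled between arrays. The 75th percentile of the gene spots was 296.5 on the adult liver array, 386.0 on the fetal liver array and 894.5 on the marrow array. Each fold below is therefore a ratio after each signal was divided by that percentile, and it differs from the plain ratio of the printed signals. A signal is called dim where the software did not find it well above background. A fold with a dim side is a lower bound, written "at least", against the higher of the dim signal and the array's lowest signal well above background. Between 52.6% (adult liver) and 58.8% (marrow) of an array's gene spots were well above background, and no member's spot was flagged or saturated. The labels held against cell markers: hepatocyte markers were well above background in 9 of 9 cases on the adult liver array and in 8 of 9 on the fetal liver array, which also showed 9 of 9 erythroid markers. All 10 neutrophil markers were well above background in marrow and also in fetal liver, with summed scaled signals of 1909 and 147. In marrow 4 of 9 hepatocyte markers were well above background, and the summed, scaled hepatocyte signal was 4.19, against 3272 in adult liver.

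Dnajc11 was printed on 10 spots of each array, which read 599 to 682 in adult liver, 807 to 941 in fetal liver and 719 to 842 in marrow, an SD of 0.058, 0.066 and 0.065 on the log2 scale. The software's own error of a member's signal had a median of 10% in each tissue. Folds of about 1.1 are no larger than this error. Different probes of a gene, described further down, disagreed by more than its spots did. These values cover the spot and the scan and say nothing of the spread between animals or RNA preparations.

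Of the 65 members, 50 were well above background in all 3 tissues and 10 in 2 of them. Dnajb13 and Hspa12a were well above background in marrow alone. Dnajb7, Dnajc5b and Hspb3 were dim on every array. By tissue the number was 54 for adult liver and 59 each for fetal liver and marrow.

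Between fetal and adult liver, 57 members could be compared and 8 differed by 4-fold or more, 14.0% beside 26.2% of the 14186 genes compared. Higher in fetal liver were 5 (8.77%, beside 12.1% of genes), namely Hsp90aa1, Dnajc2, Dnajc9, Dnajb3 and Dnajb8. Higher in adult liver were 3 (5.26%, beside 14.1%), namely Hspb8, Hspb1 and Dnajb9. The median log2 difference over the 53 members measured on both arrays was 0.33 towards fetal liver, with 30 higher there and 23 lower, beside a median of -0.03 over all genes.

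Fetal liver and marrow had the fewest members past 4-fold under this scaling. Of 62 members compared, 3 differed by 4-fold (4.84%, beside 17.6% of 14677 genes). Hspb8 and Hspa12b were higher in fetal liver (3.23%, beside 9.33%) and Dnajc6 was higher in marrow (1.61%, beside 8.3%). The median over 56 members was 0.42 towards fetal liver and that of all genes 0.25.

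Adult liver and marrow differed by 4-fold in 12 of 57 members, 21.1% beside 33.8% of 14245 genes. In adult liver 7 were higher (12.3%, beside 18.8%): Hspb8, Hspb1, Hspb2, Hspb7, Hspa9, Dnajb9 and Dnajc3. In marrow 5 were higher (8.77%, beside 15%): Dnajb3, Dnajc6, Dnajc9, Dnajc7 and Dnajc8. The members' median was 0.43 towards adult liver, beside 0.16 over all genes. In each comparison the members' share past 4-fold was below that of all genes. At 2-fold the shares were closer: 24 members between the livers (42.1%, beside 53.7% of genes), 22 between fetal liver and marrow (35.5%, beside 42.1%) and 36 between adult liver and marrow (63.2%, beside 60%). Of these, 13 were higher in fetal than adult liver (22.8%, beside 27%) and 11 lower (19.3%, beside 26.8%). Against marrow, 18 were higher in fetal liver (29.0%, beside 25.1%) and 4 lower (6.45%, beside 17%), and 23 were higher in adult liver (40.4%, beside 32.6%) and 13 lower (22.8%, beside 27.4%). The 3 comparisons share their arrays pairwise, so they are not independent of each other.

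Directions against marrow rest on the scaling. Scaled by the array's own spike-in probes, which detect control RNA added at labelling, in place of the 75th percentile, the median of all genes moved from 0.25 to -2.11 in fetal liver against marrow and from 0.16 to -2.62 in adult liver against marrow, and from -0.03 to 0.39 between the livers. The split of genes past 4-fold then became 2.15% higher in fetal liver and 55.3% higher in marrow, 5.94% higher in adult liver and 65.3% higher in marrow, and, between the livers, 16.8% higher in fetal and 10.8% higher in adult liver. Both scalings shift every gene of an array by the same amount, so the members moved with all genes by construction. Their median stood above that of all genes by 0.36 between the livers. Against marrow it stood above by 0.17 for fetal liver and by 0.28 for adult liver. Settings that can change this distance gave, in the same order, 0.28, 0.17 and 0.04 (normexp background correction) and 0.23, 0.04 and 0.19 (mean of all probes). Each statement below that members or other genes were higher in a liver than in marrow is relative to the bulk of the genes on these arrays.

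**Figure D1:**
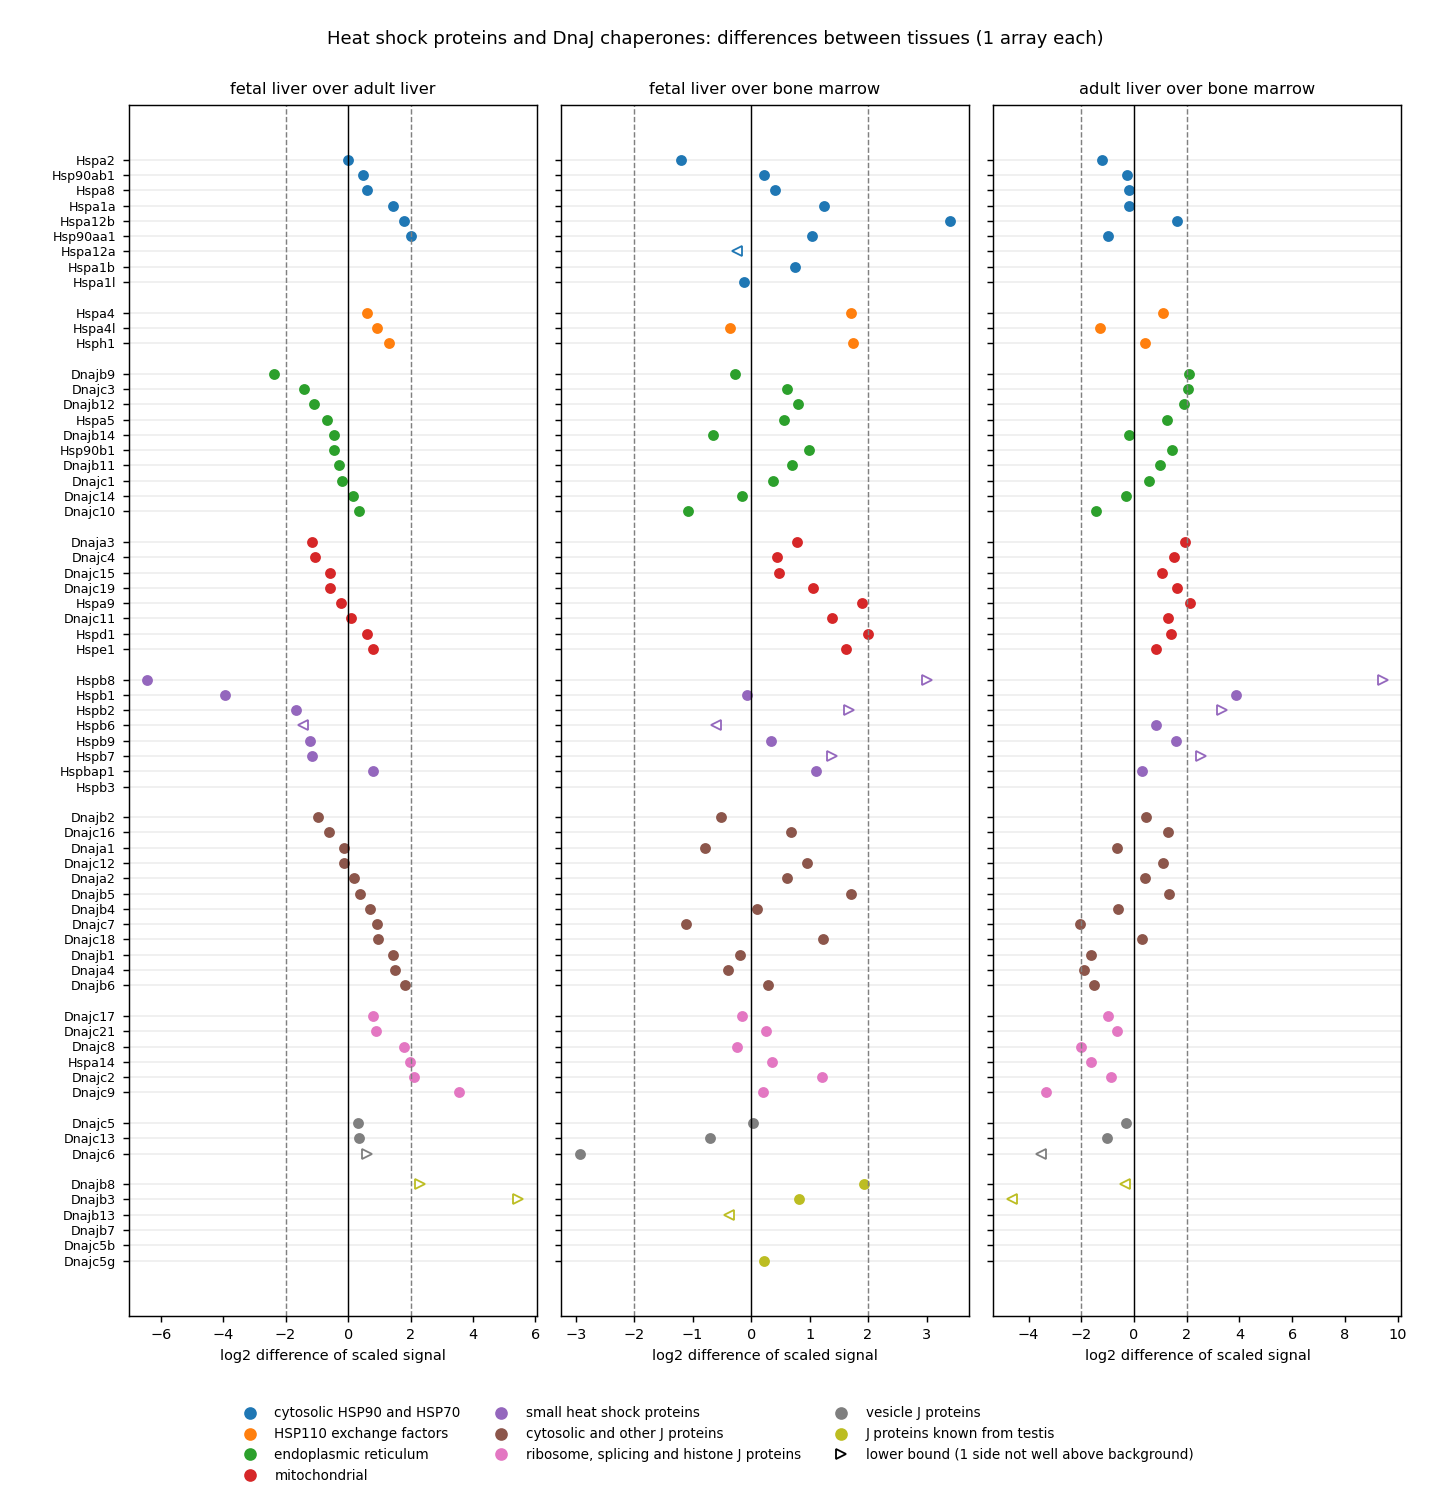
Log2 difference of scaled signal (horizontal axis) for each member, in 3 panels, 1 per pair of tissues, with genes in rows coloured by role. Filled points were measured on both arrays, hollow triangles are lower bounds pointing to the tissue that is higher, rows without a symbol have no fold, because both tissues were dim or the detected signal was not above the bound of the dim one, and dashed lines mark 4-fold; Hspb8 lies farthest towards adult liver, and Dnajc9 and Dnajb3 lie on the side of fetal liver and marrow.

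Among the cytosolic HSP90 and HSP70 proteins, 5 of the 6 measured in both livers were higher in fetal liver, with a median of 1.01 (log2), and the direction held under spike-in scaling. Hsp90aa1, the stress-inducible HSP90, read 14700 (adult liver), 77400 (fetal liver) and 87600 (marrow), 4.04-fold higher in fetal than adult liver after scaling. Adult liver was the low tissue for this gene. Its close relative Hsp90ab1, the constitutive form, read 13500, 24300 and 48500 in adult liver, fetal liver and marrow and stayed within 1.38-fold in each comparison, and within 1.87-fold by its second probe.

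The HSP70 genes were more varied. Hspa8, the constitutive HSP70, read 23000 (adult liver), 45500 (fetal liver) and 79300 (marrow) and was 1.52-fold higher in fetal than adult liver, while a second, dimmer probe of the gene put fetal liver 1.19-fold lower. So the probes of Hspa8 disagree on the sign. The stress-inducible Hspa1a read 78.8 (adult liver), 275 (fetal liver) and 268 (marrow), 2.68-fold higher in fetal than adult liver and 2.38-fold higher in fetal liver than in marrow. The near-identical Hspa1b was dim in adult liver (20.2) and low in fetal liver (25.6) and marrow (35.4); probes of these 2 genes may pick up each other's RNA. For Hspa1a adult liver was below fetal liver and close to marrow after scaling, and for Hspa1b no fold against adult liver can be given.

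Hspa2, an HSP70 best known from male germ cells, read 72.4, 94.0 and 503 in adult liver, fetal liver and marrow and was 2.31-fold lower in fetal liver than in marrow. Its relative Hspa1l, also known from testis, was dim in adult liver at 16.6 and read 19 in fetal liver and 47.8 in marrow. After scaling marrow was highest for Hspa2, while Hspa1l differed by 1.09-fold between fetal liver and marrow and has no fold against adult liver.

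Hspa12b, a distant HSP70 relative known from endothelial cells, read 136 (adult liver), 614 (fetal liver) and 134 (marrow). Fetal liver stood above both other tissues, 3.47-fold over adult liver and 10.6-fold over marrow, the latter shrinking to a log2 difference of 1.05 under spike-in scaling. The 10 endothelial markers were all well above background on every array, with summed scaled signals of 57.0, 24.5 and 5.0 in adult liver, fetal liver and marrow; their part in the Hspa12b signal was not tested. In bulk tissue, fewer cells of a type and less RNA per cell cannot be told apart. Hspa12a was dim in both livers, at 13.8 and 14.8, and read 41.1 in marrow.

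The 3 HSP110 proteins, which act as exchange factors of HSP70, were all higher in fetal than adult liver, with a median of 0.93. Hsph1 read 4520 (adult liver), 14500 (fetal liver) and 10100 (marrow), 2.46-fold higher in fetal than adult liver. Hspa4 read 1690, 3330 and 2360 in the same order and was 1.51-fold higher in fetal than adult liver. Hspa4l read 354, 879 and 2630, 1.91-fold higher in fetal than adult liver and 1.29-fold lower in fetal liver than in marrow. Fetal liver was thus above adult liver for each of them, while against marrow Hsph1 and Hspa4 were higher in fetal liver by 3.33-fold and 3.27-fold and turned lower under spike-in scaling. One of the 3 Hspa4 probes put fetal liver 1.27-fold below marrow even without it.

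**Figure D2:**
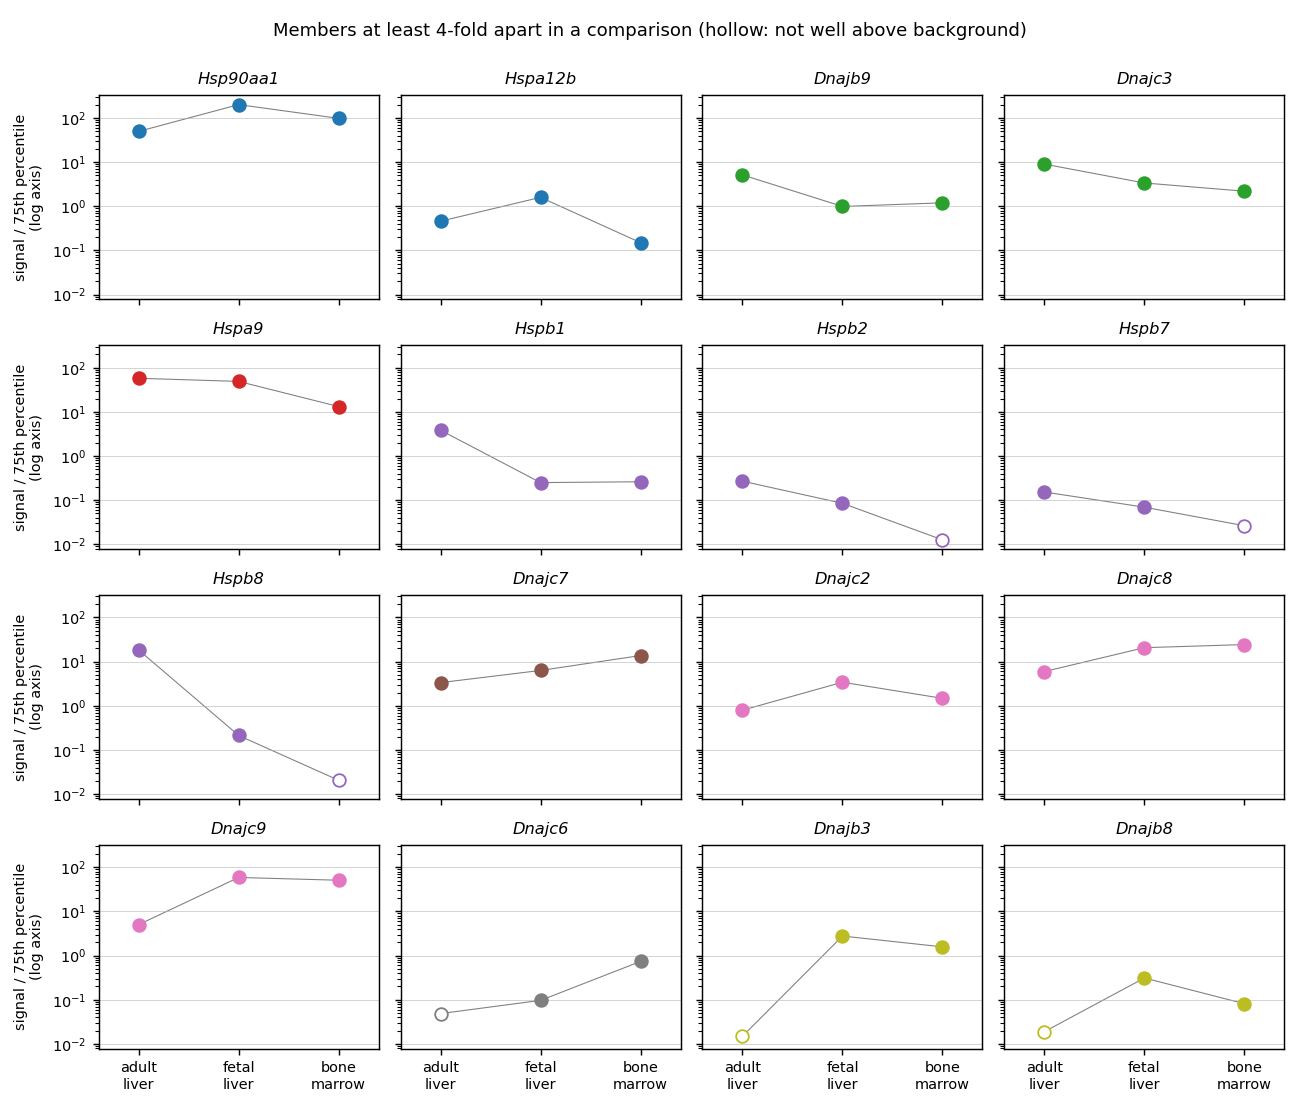
Processed signal divided by the 75th percentile of its array (log axis, no unit) in adult liver, fetal liver and bone marrow for the 16 members past 4-fold in at least 1 comparison, with 1 point per array, hollow where dim, and a line that only joins the points of a gene. Hspb8 is lower in fetal liver than adult liver by 86.4-fold and dim in marrow, and Dnajb3 and Dnajc9 are lowest in adult liver.

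Of the 10 members of the endoplasmic reticulum, 8 were lower in fetal than adult liver, with a median of -0.45, and 3 of them by at least 2-fold. The median shrank to -0.16 with quantile normalization and to -0.03 with spike-ins, under which 6 of the 10 were lower. Dnajb9, a J protein that restrains the stress sensor IRE1 together with Hspa5, read 1520 (adult liver), 382 (fetal liver) and 1070 (marrow). It was 5.18-fold lower in fetal than adult liver, and its other 2 probes gave 5.67-fold and 5.07-fold. Adult liver also stood 4.29-fold above marrow for this gene, a direction that reversed under spike-in scaling.

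Dnajc3, which dampens the kinase PERK and binds unfolded proteins in the lumen, read 2670, 1300 and 1960 in adult liver, fetal liver and marrow. It was 2.67-fold lower in fetal than adult liver, and all 4 of its probes were lower there, by 2.51-fold to 3.59-fold. Against marrow adult liver was 4.11-fold higher by the brightest probe, while the others gave 1.63-fold to 3.53-fold and spike-in scaling reversed the sign.

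The major lumenal chaperones varied less. Hspa5 (BiP), the HSP70 of the endoplasmic reticulum, read 23200 (adult liver), 18800 (fetal liver) and 29600 (marrow), 1.61-fold lower in fetal than adult liver. Its HSP90 partner Hsp90b1 (GRP94) read 34500, 32800 and 38100 and was 1.37-fold lower in fetal than adult liver. Dnajb11, a J protein that works with Hspa5 on secreted proteins, read 9950, 10500 and 15000 and was 1.23-fold lower. Adult liver was the highest of the 3 tissues for all of these after scaling to the 75th percentile.

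Dnajc10, a J protein with disulphide reductase activity, went the other way: it read 419, 699 and 3420 in adult liver, fetal liver and marrow, 1.28-fold higher in fetal than adult liver and 2.11-fold lower in fetal liver than in marrow. Dnajc1, a membrane-bound partner of Hspa5, read 1110, 1260 and 2260 and stayed within 1.48-fold by its brightest probe, while another probe reached 2.95-fold between adult liver and marrow. The remaining 3, Dnajb12, Dnajb14 and Dnajc14, were between 2.12-fold lower and 1.11-fold higher in fetal than adult liver. The 3 genes with the stress element shown above, Hspa5, Hsp90b1 and Dnajc3, were all lower in fetal than adult liver, and 5 of the other 7 members of the endoplasmic reticulum were as well.

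By the probe that represents each gene, all 8 mitochondrial members were higher in fetal liver than in marrow, with a median of 1.22, and all 8 were higher in adult liver than in marrow, with a median of 1.45; under spike-in scaling these medians turned to -1.14 and -1.33. Between the livers the median was -0.40, which moved to 0.03 with quantile normalization and 0.02 with spike-ins, so it has no settled direction. Hspd1 (HSP60), the matrix chaperonin, read 33400 (adult liver), 66000 (fetal liver) and 38400 (marrow), 1.52-fold higher in fetal than adult liver and 3.98-fold higher in fetal liver than in marrow. Its lid Hspe1 (HSP10) read 8330, 18800 and 14100, 1.73-fold and 3.09-fold higher in fetal liver than in adult liver and marrow. These genes, which share the promoter shown above, were thus both highest in fetal liver, which with spike-ins holds against adult liver only, and a dimmer second Hspd1 probe put fetal liver only 1.39-fold above marrow and adult liver 1.41-fold below it.

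Hspa9 (mortalin), the HSP70 that pulls proteins into the matrix, read 17100 (adult liver), 18900 (fetal liver) and 11800 (marrow). Both livers exceeded marrow, adult liver by 4.37-fold and fetal liver by 3.71-fold, and a dimmer second probe gave 1.69-fold and 1.12-fold. With spike-in scaling the sign turned. Between the livers Hspa9 was 1.18-fold lower in fetal liver, and J proteins of this machinery were lower there too. Dnaja3 (TID1) read 2860, 1680 and 2260 and was 2.22-fold lower in fetal than adult liver, and Dnajc19, a partner at the import channel, read 19500, 17100 and 19100 and was 1.48-fold lower. The other 2 Dnajc19 probes were also lower in fetal than adult liver but put fetal liver below marrow. Dnajc4 and Dnajc15 were 2.10-fold and 1.49-fold lower in fetal than adult liver, and Dnajc11 was 1.07-fold higher.

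**Figure D3:**
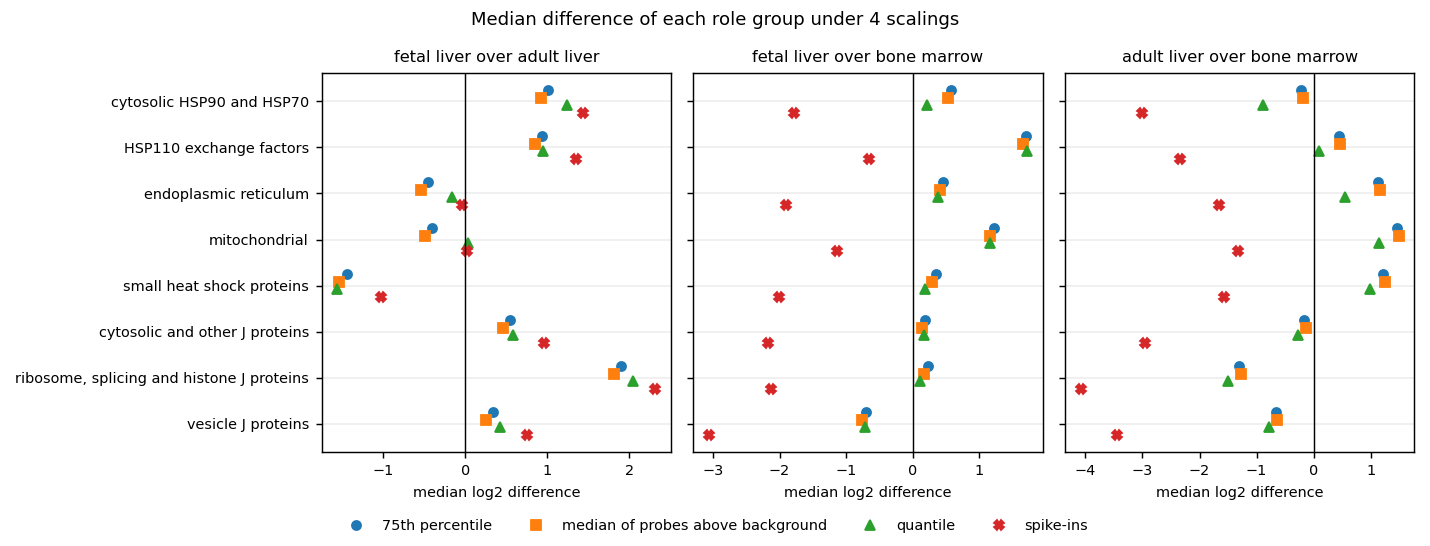
Median log2 difference (horizontal axis) of each role group in the 3 comparisons, with 1 symbol for each of 4 scalings. The spike-in symbols lie below 0 for all groups against marrow, and between the livers the ribosome, splicing and histone group is above 0 under all 4 while the endoplasmic reticulum group runs from -0.54 to -0.03.

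The small heat shock proteins held the largest difference measured between the livers, that of Hspb8. Leaving Hspbap1 aside, all 5 measured in both livers were lower in fetal than adult liver, with a median of -1.66, and the 3 measured on the adult liver and marrow arrays favoured adult liver, at a median of 1.58 that became -1.20 under spike-in scaling. With Hspbap1, as the plot of role medians has them, the medians were -1.45 and 1.21. Hspb8 (HSP22), which works with Bag3 in selective autophagy, read 5450 in adult liver, 82.1 in fetal liver and a dim 18.4 in marrow. Adult liver exceeded fetal liver 86.4-fold and marrow at least 694-fold. Its single probe lies in mm9, the build of the probe coordinates in the files, at chr5:116859063-116859122. Hspb8 kept its direction under every scaling, with a log2 difference between -6.52 and -5.64 in fetal against adult liver.

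Hspb1 (HSP27), an actin-associated chaperone, read 1140 (adult liver), 96.5 (fetal liver) and 234 (marrow). It was 15.4-fold higher in adult than fetal liver and 14.7-fold higher in adult liver than in marrow, the latter a log2 difference of 1.1 under spike-in scaling. Fetal liver and marrow differed by only 1.05-fold. Adult liver was thus the single high tissue for Hspb1 as for Hspb8.

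The small heat shock proteins known from muscle were dim or low. Hspb2 read 79.8 in adult liver, 32.8 in fetal liver and a dim 11.3 in marrow, so adult liver exceeded marrow at least 10.2-fold. Hspb7 read 45.4, 26.8 and a dim 23.6, and exceeded marrow at least 5.78-fold in adult liver. For both Hspb2 and Hspb7 the other probe was dim on every array. Under spike-in scaling the bound of Hspb2 against marrow fell to a log2 difference of 0.57, and Hspb7 had no fold. Hspb6 read 31.4 in adult liver, a dim 3.37 in fetal liver and 52.7 in marrow. Of 9 skeletal muscle and other dissection markers, 2 were detected in adult liver, against 3 for fetal liver and 7 for marrow. Their summed scaled signals were 0.379, 0.617 and 3.51 in the same order. Myh4, Ckm and Myl1 were dim in both livers. The part of such tissue in the Hspb2, Hspb6 and Hspb7 signals was not tested. Hspb9, known from testis, read 182, 101 and 184, and Hspb3 was dim throughout. Hspbap1, taken in by its name, read 440, 996 and 1070 and was 1.74-fold higher in fetal than adult liver.

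Among the 12 cytosolic and other J proteins, 8 were higher in fetal than adult liver, with a median of 0.54, none by 4-fold. The 8 count Dnajb6 by its brightest probe, with which its other probes disagree. With the mean of all probes the median was 0.10, with 7 higher and 5 lower. Dnajb1 (HSP40), the main stress-inducible partner of HSP70, read 5320 (adult liver), 18800 (fetal liver) and 49800 (marrow), 2.71-fold higher in fetal than adult liver and 3.10-fold lower in adult liver than in marrow. Dnaja2 read 1680, 2480 and 3760 and stayed within 1.53-fold. Both are partners of Hspa8 in the cytosol; adult liver was the low tissue for Dnajb1 and lay between the others for Dnaja2.

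Dnajc7 (TPR2), which passes clients between HSP70 and HSP90, read 994 (adult liver), 2440 (fetal liver) and 12300 (marrow). Marrow was the high tissue, 4.10-fold over adult liver and 2.18-fold over fetal liver. Dnaja1, a farnesylated partner of HSP70, read 2010, 2370 and 9520 by its brightest probe, which put marrow highest, but its other probes read 1030, 398 and 687, and 3170, 2610 and 3480, and put adult liver highest after scaling. Dnajb6, which holds back aggregation of polyglutamine proteins, read 904, 4130 and 7860 and was 3.51-fold higher in fetal than adult liver by its brightest probe, while the other 2 probes put fetal liver 2.19-fold and 1.14-fold lower. No direction is given for Dnaja1 and Dnajb6. The remaining 7 genes of this group ranged from 1.97-fold lower to 2.81-fold higher in fetal than adult liver.

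The 6 members that work at the ribosome, in splicing or with histones were all higher in fetal than adult liver, with a median of 1.90, and all lower in adult liver than in marrow, with a median of -1.30. Both directions held under every scaling. Dnajc9, a histone H3 and H4 chaperone, read 1490 (adult liver), 22700 (fetal liver) and 45500 (marrow). It was 11.7-fold higher in fetal than adult liver and 10.1-fold lower in adult liver than in marrow, and a second probe reading 41.3, 506 and 2910 gave 9.41-fold and 23.4-fold. Fetal liver and marrow were both far above adult liver.

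Dnajc2 (MPP11) and Hspa14 form a complex that meets new chains at the ribosome. Dnajc2 read 236 (adult liver), 1320 (fetal liver) and 1320 (marrow), 4.30-fold higher in fetal than adult liver, with 4.72-fold by its second probe. Hspa14 read 2810, 14600 and 26300 and was 3.99-fold higher in fetal than adult liver, just short of the threshold. The pair thus had the same order of tissues.

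Dnajc8, a protein of the spliceosome, read 1770 (adult liver), 8000 (fetal liver) and 21800 (marrow), 4.08-fold lower in adult liver than in marrow and 3.47-fold higher in fetal than adult liver. Dnajc17 and Dnajc21 were 1.75-fold and 1.84-fold higher in fetal than adult liver. Against marrow, 4 members of this group were higher and 2 lower in fetal liver. The proliferation markers were also lowest in adult liver. Of 10, 5 were well above background there and all 10 in fetal liver and marrow, with summed scaled signals of 2.98, 351 and 277. Their part in the signals of these J proteins was not tested.

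Of the J proteins of vesicles, Dnajc6 (auxilin), which strips clathrin coats in neurons, was dim in adult liver at 14.4 and read 37.3 in fetal liver and 660 in marrow. Marrow was the high tissue, 7.64-fold over fetal liver and at least 11.6-fold over adult liver. Dnajc5, the cysteine string protein of exocytosis, read 2350, 3850 and 8700 in adult liver, fetal liver and marrow and stayed within 1.26-fold. Dnajc13, an endosomal J protein, read 157, 259 and 976 and was 2.06-fold lower in adult liver than in marrow. In marrow the neutrophil markers summed to 1909 and the B cell markers to 169, against 147 and 2.42 in fetal liver; their part in the Dnajc6 signal was not tested.

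The J proteins known from testis were dim in adult liver without exception. Dnajb3 was dim at 4.42 there and read 1070 in fetal liver and 1410 in marrow, at least 43.5-fold higher in fetal than adult liver and 1.76-fold higher in fetal liver than in marrow. Dnajb8 was dim at 5.61 in adult liver and read 120 in fetal liver and 72.7 in marrow, at least 4.88-fold higher in fetal than adult liver. Marrow was at least 24.7-fold above adult liver for Dnajb3, but the bound was only 1.28-fold for Dnajb8. For Dnajb8 fetal liver was 3.83-fold above marrow, a direction that turned under spike-in scaling. With normexp its bound between the livers fell to a log2 difference of 0.97. Dnajc5g read 22.7 in fetal liver and 45.1 in marrow, and Dnajb13 read 45.2 in marrow.

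**Figure D4:**
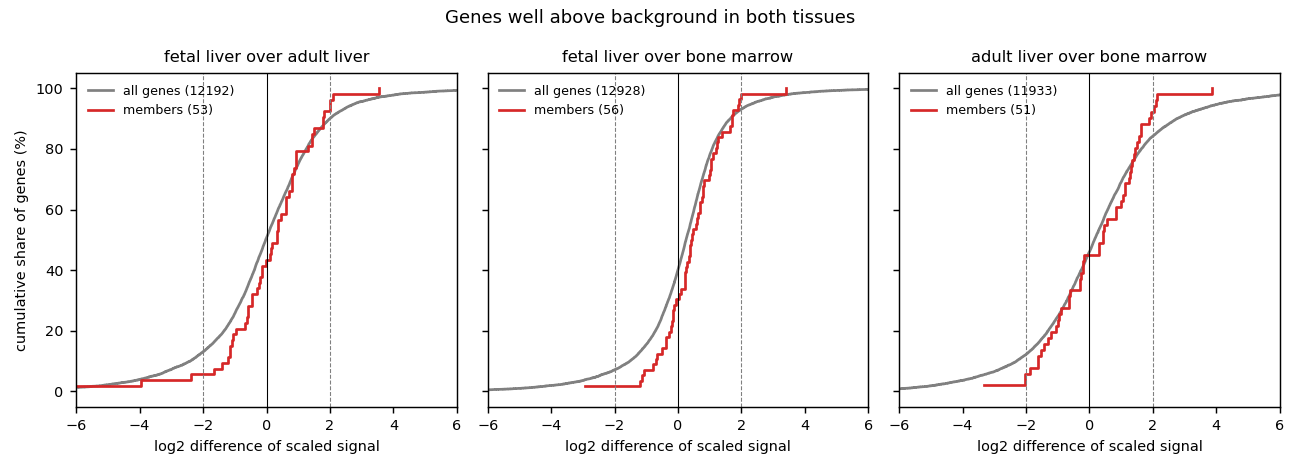
Cumulative share (vertical axis, percent) of the members (red) and of all named genes (grey) at or below each log2 difference (horizontal axis, drawn from -6 to 6), for genes well above background in both tissues of each pair, with dashed lines at 4-fold. The red line has less of its length beyond the dashed lines: of the members compared, lower bounds included, 14.0% were past 4-fold between the livers, beside 26.2% of all genes.

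Measured across the 3 tissues, the 50 members well above background everywhere had a median span from the lowest to the highest tissue of 2.72-fold, beside 2.93-fold for 11688 genes. By the representative probe the span stayed within 2-fold for 12 of them (24.0%, beside 27.8% of genes): Hspa8, Hsp90ab1, Dnaja1, Dnaja2, Dnajb2, Dnajb4, Dnajb14, Dnajc1, Dnajc5, Dnajc14, Dnajc17 and Dnajc21. For 5 of these, Hspa8, Dnaja1, Dnajb4, Dnajc1 and Dnajc17, another probe went past 2-fold, up to 4.52-fold for Dnaja1. The highest tissue was fetal liver for 21 members, adult liver for 17 and marrow for 12, beside 33.7%, 39.9% and 26.4% of all genes. The lowest was marrow for 24, adult liver for 20 and fetal liver for 6, beside 40.9%, 37.2% and 22% of all genes. These orders are those of the 75th percentile scaling.

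Where a member had several probes well above background, they were set against each other. Between the livers 27 members had such probes and in 23 all probes had the same sign, with a median range of 0.40 log2 units. For adult liver against marrow 24 of 27 had the same sign. For fetal liver against marrow 13 of 29 did, with a median range of 0.84, so differences of that comparison depend on the probe chosen. Some past 2-fold by the representative probe changed sign with another probe: Hspa4 (1.71 and -0.34), Dnajb5 (1.71 and -0.26), Dnajc18 (1.23 and -0.30) and Dnajc19 (1.05 and -0.75). The widest ranges were 2.94 for Dnajb6 between the livers and 2.89 for Hspa4 between adult liver and marrow.

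**Figure D5:**
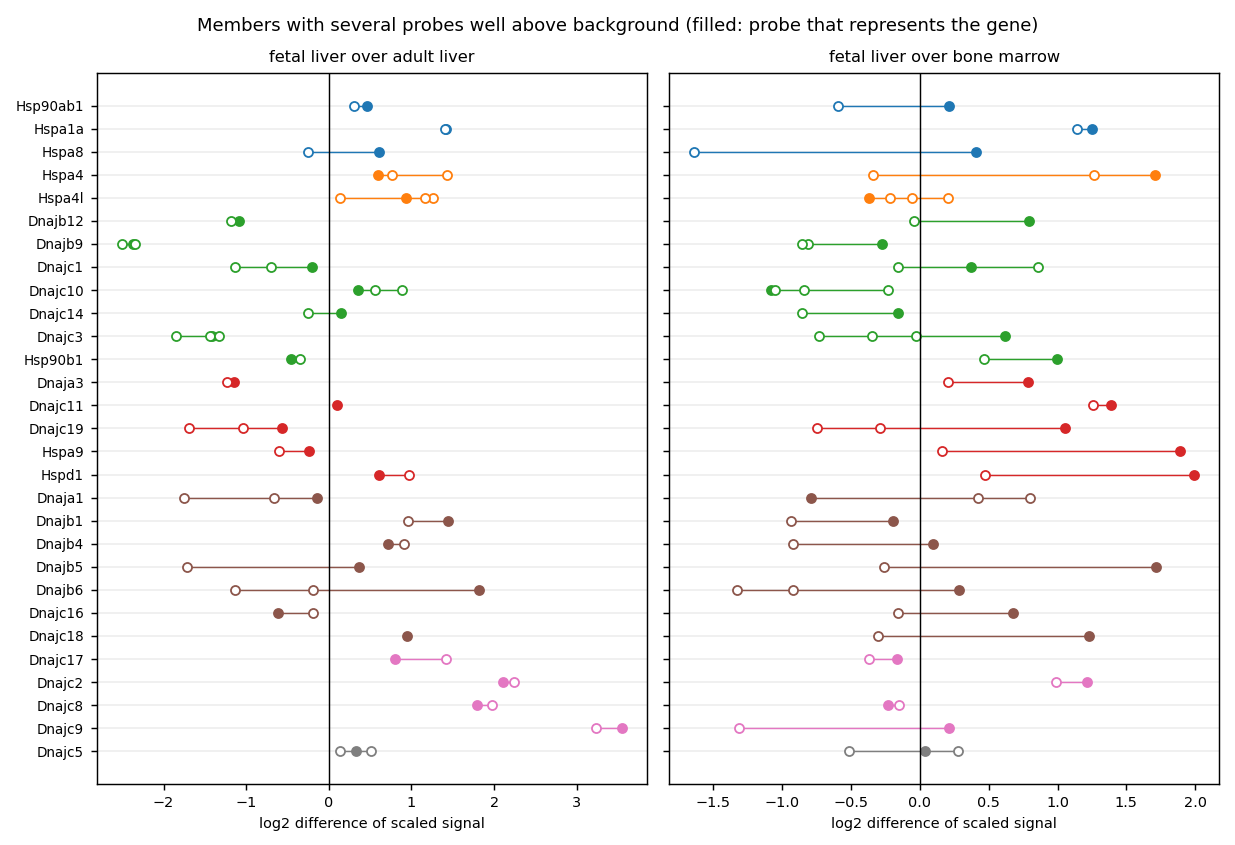
Log2 difference of scaled signal for each probe of the members with several probes well above background, in fetal against adult liver and in fetal liver against marrow, with 1 row per gene, the probe used for the gene filled and the others hollow. Between the livers the probes of Dnajb9, Dnajc2 and Dnajc9 lie close together, those of Dnajc3 run from -1.84 to -1.33, and those of Dnajb6 span 2.94 log2 units on both sides of 0.

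The partners of these chaperones outside the family were read from lists of known role, whose counts past 4-fold stand beside the same background shares of all genes. Heat shock factor Hsf1, named with Hsf2 as the main regulator although neither passed 4-fold, read 22400 (adult liver), 18400 (fetal liver) and 68800 (marrow) and stayed within 1.61-fold, while Hsf2 was dim on every array. Of 4 heat shock factor genes compared, 1 was past 4-fold higher in adult than fetal liver, beside 14.1% of all genes: Hsf5, at least 4.32-fold. In adult liver against marrow 2 of 4 were higher, beside 18.8%: Hsf5 and Hsf4, at least 6.34-fold and 5.69-fold. Of 20 co-chaperones of HSP90 and HSP70, 14 were higher in fetal than adult liver, with a median of 0.33. Only 1 of the 20 was past 4-fold there, beside 12.1% of all genes: Ppid, a cyclophilin, at 5.02-fold. Unc45b, a myosin chaperone, was highest in adult liver. Its log2 difference was 3.43 in adult liver against marrow and -1.23 in fetal against adult liver, and it was 4.59-fold higher in fetal liver than in marrow. With spike-ins 0 of the 20 were higher in fetal liver than in marrow. Against marrow 1 of the 20 was past 4-fold in each direction for either liver, beside 8.3% to 18.8% of all genes.

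Exchange factors of HSP70 split by gene. Between the livers 3 of the 11 outside the family passed 4-fold, a share near the 26.2% of all genes: Bag2 was 18.2-fold higher in fetal liver, and Sil1, the exchange factor of Hspa5, and Bag3, the partner of Hspb8, were 4.59-fold and 4.06-fold higher in adult liver. Bag3 read 2980 (adult liver), 956 (fetal liver) and 1220 (marrow), the same high tissue as Hspb8. In adult liver against marrow 5 of 11 passed 4-fold, beside 33.8% of all genes, with Bag3 7.37-fold, Sil1 6.94-fold and Hyou1 4.92-fold higher in adult liver and Bag2 6.51-fold lower. With spike-ins the median of the 11 in this comparison moved from 1.28 to -1.50, and only 2 of 11 were higher in adult liver.

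The TRiC chaperonin and prefoldin, which fold actin and tubulin, were higher in fetal than adult liver in 15 of 16 genes. The median was 1.19, and 2 were past 4-fold, beside 12.1% of all genes, namely Vbp1 at 5.24-fold and Pfdn4 at 4.77-fold. Against marrow, adult liver was lower in 13 of 16, with a median of -0.97 and 3 past 4-fold (15% of all genes were), Vbp1, Cct6a and Cct3. Both directions held under each scaling.

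Folding enzymes of the endoplasmic reticulum outside the family were lower in fetal than adult liver in 13 of 16, with a median of -0.62 that shrank to -0.20 with spike-ins. Past 4-fold were 2 of the 16 in each direction, beside 12.1% of all genes higher in fetal liver and 14.1% higher in adult liver. Ero1b, an oxidase of disulphide formation, was 34.1-fold lower and P4hb, a disulphide isomerase, 4.07-fold lower in fetal than adult liver, while Serpinh1, the collagen chaperone, was 5.38-fold and Ero1a 5.28-fold higher. Of 12 regulators of the unfolded protein response, 6 were higher and 6 lower in fetal than adult liver. Past 4-fold 3 of the 12 were lower, beside 14.1% of all genes, and 1 higher, beside 12.1%. Herpud1 was 7.83-fold, Edem1 6.18-fold and Xbp1 5.04-fold lower and Ppp1r15a 11.4-fold higher.

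Of 14 genes listed as further mitochondrial chaperones and proteases, 9 were lower and 5 higher in fetal than adult liver. The median was -0.33 and turned to 0.09 with spike-ins. Lonp2, a Lon protease of peroxisomes, stood in this list and counts in these numbers. Past 4-fold 2 of the 14 were lower, beside 14.1% of all genes, and 2 higher, beside 12.1%. Lonp2 (10.2-fold) and Clpx (6.60-fold) were lower, and Htra2 (6.82-fold) and Hscb (6.52-fold), a J protein of iron-sulphur cluster assembly, were higher. Immediate early genes, which respond to handling of tissue as well as to growth signals, were read as well: between the livers 3 of 17 compared were past 4-fold in each direction, beside 12.1% of all genes higher in fetal liver and 14.1% higher in adult liver, with Myc 30.4-fold, Ier3 14.9-fold and Btg2 4.89-fold higher in fetal liver and Zfp36 lower with a log2 difference of -3.32. In fetal liver against marrow 6 of 18 were past 4-fold lower, beside 8.3% of all genes, and 1 higher, beside 9.33%. In adult liver against marrow 6 of 18 were lower, beside 15%, and 2 higher, beside 18.8%. Fos read 20.5, 21.7 and 3006 in adult liver, fetal liver and marrow. The part of the immediate early response in the signals of the stress-inducible members Hspa1a, Hsp90aa1, Dnajb1 and Hsph1 was not tested.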

How the data were processed

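Total RNA of adult liver, fetal liver and bone marrow was measured on 1 Agilent 1-colour array each (3 arrays). The scanner software was Agilent Feature Extraction 10.5.1.1, as the submitters' processing notes and the headers state. It subtracted background and gave a linear processed signal intensity, which per the file headers has no scaling between arrays. The deposited table of the whole series was not used for results: on all 45018 spots of every array its raw intensity column matched, to 1%, the signal's error, while it matched the signal itself on 12064 to 15081 spots, and its normalized ratio column is that error over its 75th percentile. A further 24 columns of per-sample values in the files were not used.

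Flagged spots were dropped, spots of 1 probe were averaged as log2 values, and the array's 75th percentile over gene spots was subtracted (Python 3.11.15, numpy 2.4.6, pandas 2.3.3). Alternatives used limma 3.58.1 in R 4.3.3 for normexp (offset 50) and quantile normalization. Probes were named through RefSeq: 24844 by accession, 6045 by symbol, 1796 by an older symbol, and 8489 stayed unnamed. A gene is represented by the probe well above background on most arrays, ties to the brightest. A difference was called at 4-fold. The calling step was tested on simulated data: copies of a single array with spot noise, in which bright genes were changed by more than the threshold. Such data hold no spread between animals, so this checked the code alone. The number of arrays limits the precision.

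The rule named every Hsp gene, the J proteins past 4-fold and 15 J proteins of known role, and up to 4 genes per list and comparison past 4-fold; 1 gene that this rule names is not reported here. Members and lists were chosen with earlier results of these data known.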

Additional observations from a re-analysis of the deposited data

How the results depend on the processing

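No paired analysis was possible because each tissue has 1 array, and no replicate could be left out. The alternative from the deposited normalized columns was not run, since they hold errors. All values are members past 4-fold or medians (log2). With a 2-fold threshold, 13 members were higher and 11 lower in fetal than adult liver, 18 and 4 in fetal liver against marrow, and 23 and 13 in adult liver against marrow. Without lower bounds, which drops genes with a dim side, 3 were higher in fetal than adult liver, 1 was higher in fetal liver than in marrow, and 4 were higher and 3 lower in adult liver than in marrow. With the mean of all probes, 2 were lower in fetal liver than in marrow and 2 higher in adult liver than in marrow, and the medians were 0.16 between the livers and 0.30 for fetal liver against marrow. With normexp, 1 was higher and 0 lower in fetal liver than in marrow, 3 were higher in adult liver than in marrow, and the medians were 0.20 between the livers and 0.25 for adult liver against marrow. Quantile normalization gave medians of 0.30 for each liver against marrow. With spike-in scaling, 9 were higher in fetal than adult liver; 0 were higher and 28 lower in fetal liver than in marrow; and 1 was higher and 36 lower in adult liver than in marrow. The medians were then 0.75, -1.94 and -2.35, and Dnajb9 (-0.68), Dnajc3 (-0.74) and Hspa9 (-0.65) reversed in adult liver against marrow. The causes were not tested. Of the 8, 3 and 12 members called in the 3 comparisons, 6, 1 and 7 were still past 4-fold with normexp and 8, 3 and 10 with quantile normalization. Signal over background limits 11 members that were dim in adult liver and 6 in each other tissue: a comparison with that side gives a bound or no fold.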
